A study of Mus musculus with 2 samples.

Results

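The 10 genes described here make up the core of the MHC class I antigen presentation pathway: the heavy chains *H2-D1*, *H2-K1* and *H2-T23*, the light chain *B2m*, the peptide transporter *Tap1* and *Tap2*, its bridging chaperone tapasin (*Tapbp*), and the immunoproteasome subunits *Psmb8*, *Psmb9* and *Psmb10*. They were chosen by name, as every probe on the arrays that is not a control and carries the symbol of a member, and they are 10 of the 27790 genes or transcripts represented. Together they had 18 probes, printed as 36 spots per array. The comparison was between B16F1-GFP-D, derived from dormant disseminated melanoma cells (DMCs) and here called the dormant line, and its maternal line, B16F1-GFP-M, on 2-colour Agilent mouse arrays, in which the labelled RNAs of the lines compete for the same spots. The maternal RNA was labelled with Cy5 on array 1 and with Cy3 on array 2, and the dormant RNA with the other dye each time. The arrays were treated as a technical dye swap with 1 replicate per line, because no label tells separate cultures or extracts apart. No test between the lines was therefore possible. Each spread given is the SD between the 2 arrays, which holds dye effects. Whether it holds any variation between cultures is not known, so it cannot be read as a measure of that variation.

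B16F1-GFP-M is a B16F1 mouse melanoma line, of C57BL/6 origin, that was transfected with a GFP plasmid. B16F1-GFP-D descends from it through mice: GFP+ cells were sorted from the dissociated organs of tumour-free animals 1 year after challenge with B16F1-GFP cells, in a mixture of control mice and of mice immunised with irradiated melanoma cells that secreted GM-CSF. Of several attempts a single sorted sample grew in culture, and it was cloned, so that 1 clone stands for the dormant cells and the immunised and control hosts cannot be told apart. Both lines were grown in DMEM with serum and received no treatment. All 8 melanocyte markers examined, among them *Mitf*, *Dct* and *Sox10*, were well above background in both lines. Of 16 leukocyte markers, 12 were not detected, including *Ptprc*, the pan-leukocyte antigen CD45, and *Csf1r*, a macrophage receptor. The 4 detected were *Lyz2*, *Fcer1g*, *Cd68* and *Cd3e*. Of 10 fibroblast markers 4 were detected, and of 8 endothelial markers 1. *Cd68*, *Cd3e*, *Pdgfrb*, *Col1a1* and *Vwf* were well above background on both arrays only in the dormant line. The paper states that GFP- host cells remained among the sorted cells before cloning.

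Class I molecules show fragments of the cell's own proteins to CD8+ T cells. Proteasomes cut the proteins, TAP1 and TAP2 pump the peptides into the endoplasmic reticulum, and tapasin holds the empty heavy chain with β2-microglobulin at the transporter until a peptide binds. Interferon-γ replaces the constitutive catalytic subunits by PSMB8, PSMB9 and PSMB10, and B16 melanoma is known for low surface class I that interferon-γ raises.

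The probes of *Psmb8*, *Psmb9* and *Tap1* are shown first, since they were dim and their ratios depended more on the processing than those of the other members. Positions are those of the array annotation on mm9, and an exon annotation of that build was not used here. The first *Psmb8* probe, A_51_P345366, lies at chr17:34337828-34338152, and its 60 bases are spread over 325 genomic bases, so that it spans at least 1 intron. The second, A_51_P345367, lies at chr17:34337771-34337830. Capitals mark the 3 bases that both *Psmb8* probes cover. The *Psmb9* probe lies at chr17:34319174-34319233 and the *Tap1* probe at chr17:34330854-34330913.
Psmb8 A_51_P345366: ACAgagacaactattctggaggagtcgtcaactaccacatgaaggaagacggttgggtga
Psmb8 A_51_P345367: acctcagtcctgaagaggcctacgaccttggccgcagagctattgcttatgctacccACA
Psmb9 A_51_P369803: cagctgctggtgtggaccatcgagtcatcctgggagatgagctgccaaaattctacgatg
Tap1 A_51_P100327: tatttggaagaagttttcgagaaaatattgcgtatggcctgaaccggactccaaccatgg

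Most of the pathway had a slightly higher signal in the dormant line, with no gene reaching 2-fold. All ratios are log2 of the dormant over the maternal line after background correction by normexp with an offset of 50 and loess within each array, and a gene is read from its brightest probe. All 10 genes were detected, meaning well above background in at least 1 line on both arrays, and 8 of the 10 were higher on both arrays in the dormant line, where 41.0% of the 12540 detected genes were. The exceptions were *Tapbp*, lower on both arrays, and *Tap2*, whose sign differed between the arrays. None of the 10 was called, that is, at least 2-fold changed in the same direction on each array, and 5.02% of the detected genes were. The median of the 10 log2 ratios was 0.31, with 0.27 on array 1 and 0.34 on array 2, against -0.01 over all detected genes. *Psmb8*, *Psmb9* and *Tap1* passed the filter only through the dormant line, so a count that includes them leans towards higher values. Among the 7 genes whose probe was well above background in each line, on array 1 as well as on array 2, 5 were higher on both arrays, against 41.3% of the 11609 genes that met this stricter filter, and their median was 0.24. With each array centred on its median in place of loess, the dye bias was left in (medians of all detected genes of -0.86 on array 1 and 1.02 on array 2), and 3 members were higher on both arrays, against 7.77% of detected genes. As RNA was taken from whole cultures, fewer expressing cells and less RNA per cell cannot be told apart in any of these values.

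**Figure D1:**
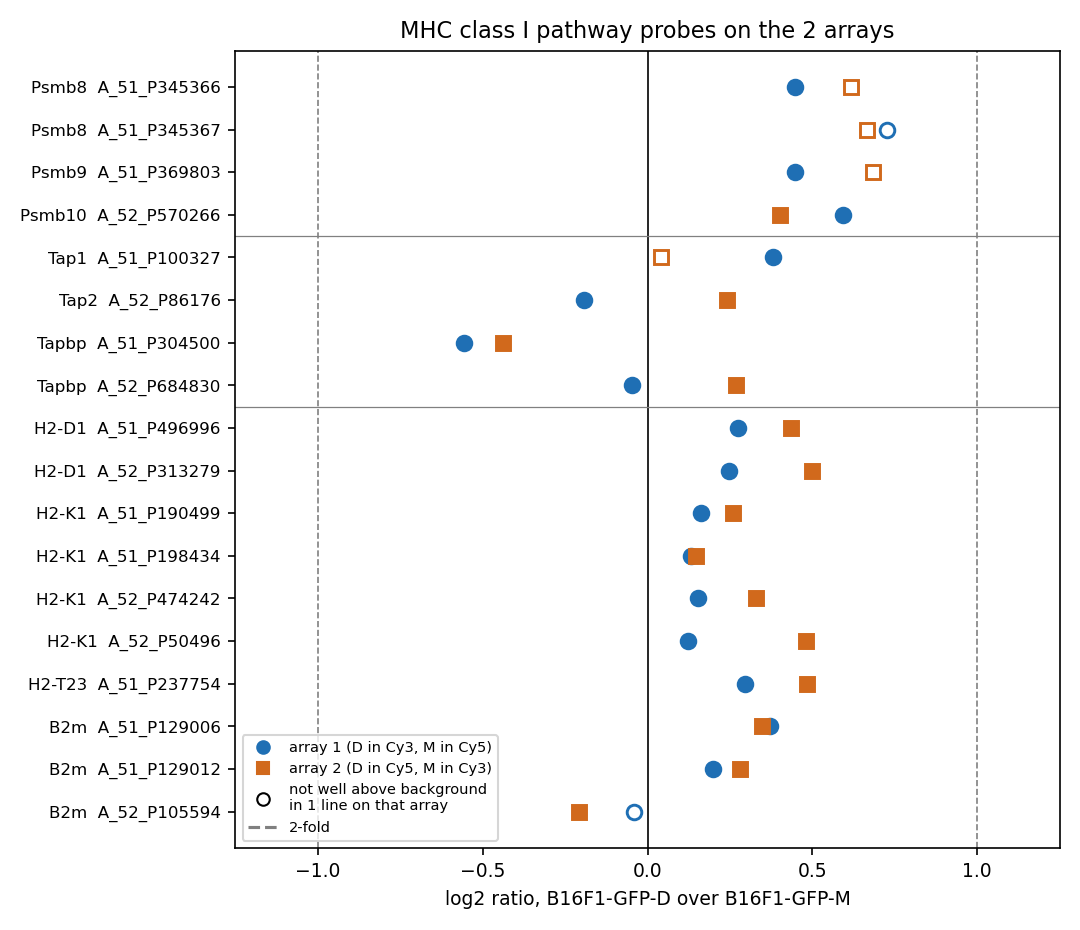
Log2 ratio of the dormant over the maternal line for each of the 18 probes of the 10 class I pathway genes, 1 point per array, with immunoproteasome subunits at the top, transporter and tapasin in the middle, and heavy chains and B2m at the bottom. Open symbols are spots not well above background in 1 line on that array, dashed lines mark 2-fold, and 14 probes lie above 0 on both arrays, 2 below on both and 2 on either side.

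The immunoproteasome subunits had a median log2 ratio of 0.53 over the 3 genes, of which *Psmb8* and *Psmb9* passed the filter only through the dormant line. These were the highest ratios of the pathway after loess with an offset of 50, but with an offset of 0 and with the scanner software's ratios *Tap1*, at 0.49 and 0.85, lay above *Psmb10*, at 0.47 and 0.50. *Psmb10* (MECL-1), which carries the trypsin-like site, was bright in both lines, at log2 intensities of 12.63 and 12.58 in the dormant line on arrays 1 and 2 and of 12.04 and 12.18 in the maternal line. The ranges of the lines did not overlap, but the share of all detected genes of which this holds was not counted. The log2 ratio was 0.50 ± 0.13 (SD between arrays, n = 2 arrays), or 1.41-fold. Under the scanner software's own processing it was 0.59 on array 1 and 0.40 on array 2, nearly the values after loess.

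*Psmb8* (LMP7), the subunit with the chymotrypsin-like site, was dim. Its first probe read 6.82 and 7.19 in the dormant line and 6.37 and 6.57 in the maternal line on arrays 1 and 2, which gave a log2 ratio of 0.53 ± 0.12 (SD, n = 2 arrays), or 1.45-fold. The second probe, at the other side of the shared bases, was not well above background in the maternal line on either array and had ratios of 0.73 and 0.66. For this probe the maternal level of each array was raised to the lowest signal that counts as well above background, where it lay below that signal. The mean maternal log2 level was then 6.24, with 6.18 measured, against 6.88 in the dormant line, a difference of 1.55-fold. It is not a strict lower bound, since maternal spots not well above background could read higher, as *Tap1* did at 6.66 on array 2. *Psmb9* (LMP2), which replaces the subunit with the caspase-like site, read 7.05 and 7.22 in the dormant line and 6.61 and 6.53 in the maternal line, with a log2 ratio of 0.56 ± 0.17 (SD, n = 2 arrays). In both genes every value of the dormant line lay above every value of the maternal line. Both passed the filter only through the dormant line, which favours this order, and the share of all detected genes with it was not counted.

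The size of the difference in these dim subunits depended on the treatment of background. An offset of 50 is added to each corrected intensity and draws the ratios of dim spots towards 0. With an offset of 0 the first *Psmb8* probe stood at 0.97 and 1.38 on arrays 1 and 2 and *Psmb9* at 0.84 and 1.56. In the log ratios of the scanner software the first *Psmb8* probe stood at 1.53 and 2.52, the second at 3.21 and 3.14, and *Psmb9* at 1.22 and 1.87. On that scale *Psmb8* and *Psmb9* were 2 of the 10 members at or above 2-fold on both arrays and higher in the dormant line, as were 6.05% of detected genes. Their signals were low throughout. In Cy3 the first *Psmb8* probe was 3.33 times its local background for the dormant line and 2.53 times for the maternal line, and in Cy5 these were 2.77 and 1.82 times. *Psmb9* stood at 4.09 and 2.17 times background in Cy3 and at 2.81 and 2.24 times in Cy5. The dormant line had the higher signal in each dye, but these pairs come from different arrays that were not scaled to each other.

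**Figure D2:**
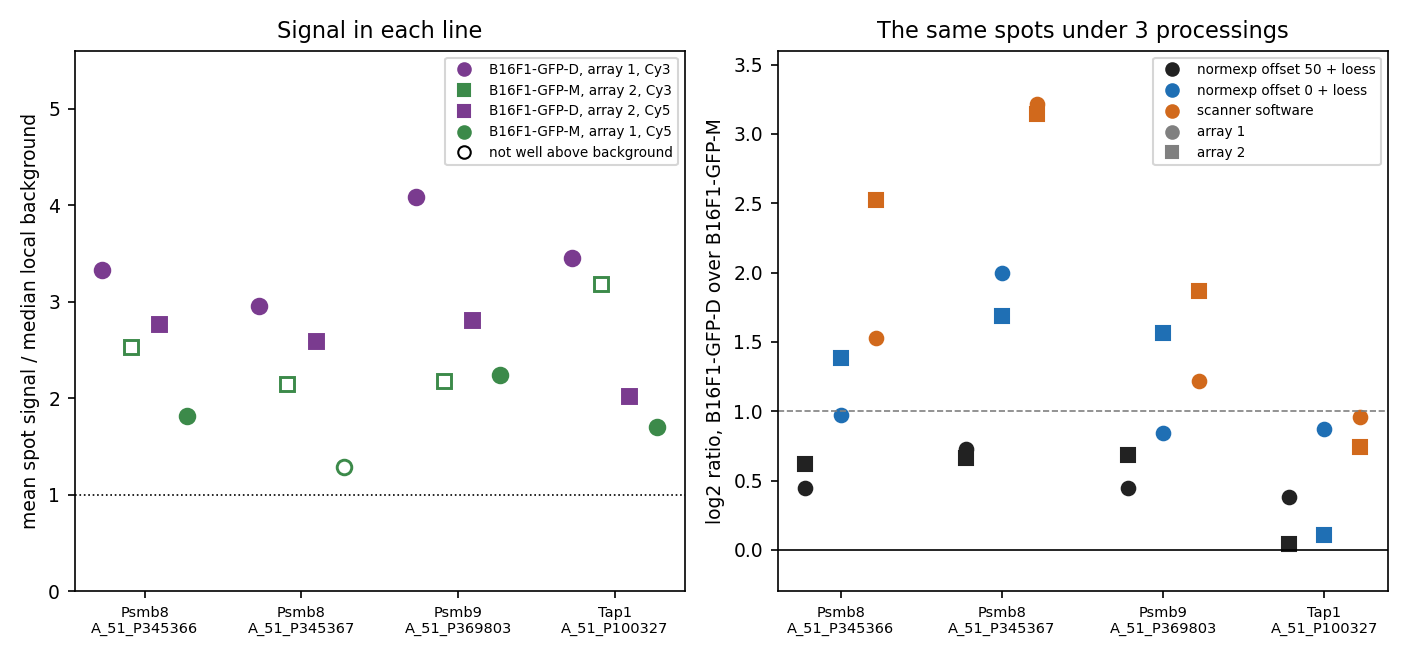
Left, mean spot signal divided by median local background for the 4 probes of Psmb8, Psmb9 and Tap1, with the same dye of the 2 lines side by side (1 point per line and array; open, not well above background; dotted, signal equal to background). Right, log2 ratio of the same spots on each array under 3 processings, where the second Psmb8 probe moves from 0.73 and 0.66 to 3.21 and 3.14 (dashed, 2-fold).

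Each immunoproteasome subunit takes the place of a constitutive one, so the ratios of both were set side by side; these are ratios of different probes, not levels. *Psmb5*, the counterpart of *Psmb8*, had log2 ratios of 0.13 on array 1 and -0.25 on array 2, and the ratio of *Psmb8* exceeded it by 0.32 and 0.87, from a probe that was not well above background in the maternal line on array 2. *Psmb6*, the counterpart of *Psmb9*, stood at 0.63 and 0.57, and the differences from it, with the same limit of the maternal signal, were -0.19 and 0.11, which change sign between the arrays. *Psmb7*, the counterpart of *Psmb10*, rose, with ratios of 1.77 and 1.22, and was the only called gene of the 3; with median centring it stood at 0.73 and 2.60. *Psmb10* thus had the smaller ratio of this pair, by 1.18 and 0.82 on arrays 1 and 2. Under the scanner software's processing the mean differences were 2.11 for *Psmb8* over *Psmb5*, 0.97 for *Psmb9* over *Psmb6* and -1.03 for *Psmb10* over *Psmb7*. Among the 3 pairs, only that of *Psmb10* and *Psmb7* was well above background for both genes and both lines on each array, and in the *Psmb9* pair it turned on the processing.

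**Figure D3:**
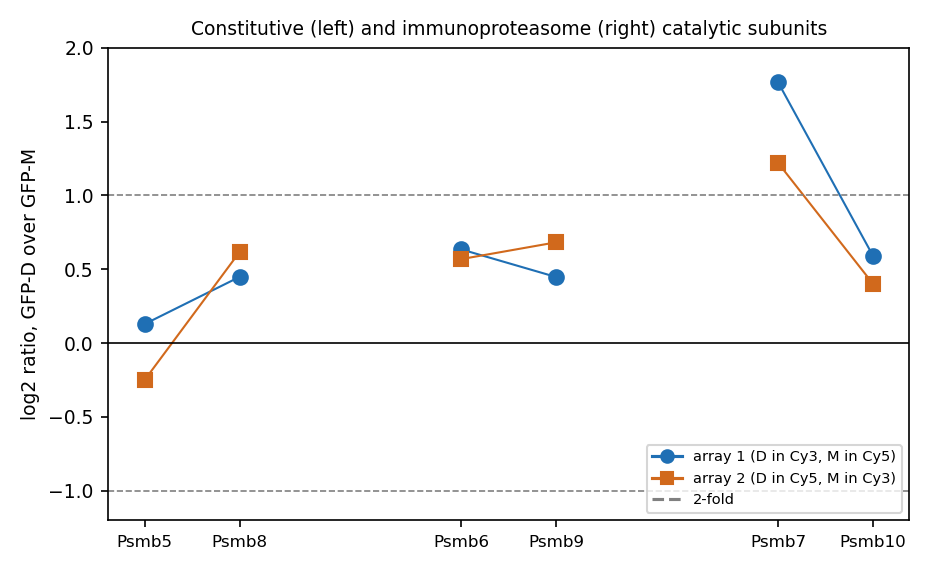
Log2 ratio of the dormant over the maternal line for each constitutive catalytic subunit (left of each pair) and its immunoproteasome counterpart (right), with 1 line per array and dashed lines at 2-fold. Psmb7 lies above 2-fold on both arrays, Psmb10 below it, and the lines of the Psmb6 and Psmb9 pair cross.

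The transporter and tapasin did not share a direction. *Tap1* was dim, with log2 intensities of 6.71 and 6.70 in the dormant line and of 6.33 and 6.66 in the maternal line. Its ratio was 0.38 on array 1 but 0.04 on array 2, a mean of 0.21 ± 0.24 (SD, n = 2 arrays), so that the difference was smaller than the spread between arrays. The scanner software gave 0.96 and 0.74. *Tap2* was well above background throughout, with ratios of -0.19 and 0.24 and a mean of 0.02 ± 0.31, and the levels of the lines overlapped. *Tapbp* was the only member lower in the dormant line on both arrays, although with median centring it stood at -1.60 on array 1 and 0.87 on array 2. Its bright probe read 10.72 and 10.56 in the dormant line and 11.28 and 11.00 in the maternal line, a log2 ratio of -0.50 ± 0.08 (SD, n = 2 arrays), and 12.1% of detected genes had a lower ratio. A second, dim *Tapbp* probe stood at -0.05 and 0.27, and the probes of this gene thus disagreed.

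The heavy chains and *B2m* were all higher on both arrays in the dormant line, at 4 of 4 genes with a median of 0.31; with median centring none of the 4 kept 1 sign on both arrays, and the median of the 4 was 0.51. *H2-D1*, a classical heavy chain that presents peptides to CD8+ T cells, read 11.45 and 11.60 in the dormant line and 11.20 and 11.10 in the maternal line, a log2 ratio of 0.37 ± 0.18 (SD, n = 2 arrays). Its other probe gave 0.27 and 0.44. *H2-K1*, the other classical heavy chain, had the smallest ratio of the group, 0.14 ± 0.01, from levels of 10.98 and 11.10 in the dormant line and of 10.85 and 10.95 in the maternal line. This probe was printed 10 times. The spots spread with an SD of 0.02 on each array, on 10 spots of array 1 and 9 of array 2, which covers the error of printing and reading spots of 1 hybridisation and not the difference between cultures. Of all detected genes 35.4% had a larger ratio than *H2-K1*, and with median centring it stood at -0.91 and 1.49. The 3 further *H2-K1* probes had mean ratios of 0.21, 0.24 and 0.30. *H2-T23*, which encodes the non-classical Qa-1 that binds the NK cell receptor CD94/NKG2A, stood at 0.30 and 0.49, from 10.05 and 10.30 in the dormant line and 9.75 and 9.81 in the maternal line.

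*B2m*, the light chain of class I molecules, was bright. It read 13.54 on both arrays in the dormant line and 13.34 and 13.26 in the maternal line. The log2 ratio was 0.24 ± 0.06 (SD, n = 2 arrays). A probe printed 10 times gave 0.37 on array 1 and 0.35 on array 2, with SDs between spots of 0.03 and 0.05. The remaining probe, annotated to another transcript and dim, stood at -0.04 and -0.21. For *B2m* and for each heavy chain the levels of the lines did not overlap between arrays at the brightest probe. For *H2-K1* the nearest levels were 10.98 in the dormant and 10.95 in the maternal line. The share of all detected genes without such an overlap was not counted.

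Heavy chain genes are alike in sequence, and several probes could have bound more than 1 of them. Comparing each 60-base member probe, position by position and without gaps, with all probes of other *H2* genes, the *H2-T23* probe matched a probe of *H2-Q7* at 50 bases and the brightest *H2-D1* probe matched a probe of *H2-Q2* at 47. The brightest *H2-K1* probe had at most 27 matching bases with another gene's probe, and the second *H2-D1* probe at most 24. Of the 3 further *H2-K1* probes, A_52_P474242 matched a probe of *H2-Bl* at 46 bases, A_52_P50496 matched a probe of *H2-Q10* at 40, and A_51_P190499 had at most 26. Probes were compared only with probes, as transcript sequences were not at hand. A low count therefore does not show that a probe binds 1 gene only. The genes of the *H2-Q* cluster had nearly the ratios of *H2-D1* and *H2-T23*: 0.27 and 0.47 for *H2-Q2*, 0.25 and 0.48 for *H2-Q7*, 0.25 and 0.45 for *H2-Q4* and 0.19 and 0.42 for *H2-Q10* on arrays 1 and 2. Among 16 listed *H2* heavy chains outside the members, 12 had a probe and 8 were detected, of which 7 were higher on both arrays in the dormant line (1 with median centring, 6 with the scanner software), with a median of 0.33. *H2-T22*, at 0.0022 and -0.31, was the exception. *H2-M3*, which presents formylated peptides, was well above background on both arrays only in the dormant line and stood at 0.25 and 0.49. The part of shared binding in these values was not tested.

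Class I-like genes with other tasks had ratios below 0. *Hfe*, a regulator of iron uptake, stood at -0.96 and -0.73, *Fcgrt*, the neonatal Fc receptor, at -0.72 and -0.51, and *Mr1*, which presents vitamin B metabolites, at -0.49 and -0.19. All 3 detected genes of this kind were thus lower on both arrays, with a median of -0.62, although none was called and with median centring none of the 3 kept 1 sign. *Cd1d1*, which presents lipids, was not detected.

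The further loading and assembly machinery was split. Of 13 genes, all detected, 6 were higher and 7 lower in the dormant line on both arrays (2 and 1 with median centring), with a median of -0.07. *Calr* (calreticulin) and *Pdia3* (ERp57), the chaperones that join tapasin in the peptide loading complex, had ratios of 1.31 and 0.92 and of 1.22 and 0.71, both under 2-fold on array 2, whereas *Canx* (calnexin), which receives the new heavy chain, stood at -0.12 and -0.03. *Abcb9*, a lysosomal peptide transporter related to TAP, fell, at -1.09 and -1.35, and was the only called gene of this list. *Erap1*, the aminopeptidase that trims peptides in the endoplasmic reticulum, stood at -0.32 and -0.36, and *Tapbpl* (TAPBPR), the tapasin-related peptide editor, at -0.37 and -0.16. The proteasome activator genes *Psme1* and *Psme2*, which interferon-γ induces alongside the immunoproteasome, stood at -0.12 and -0.02 and at -0.21 and -0.24. *Pomp*, the assembly factor of proteasomes, stood at 0.75 and 0.66.

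Regulators of class I transcription showed no common direction. Of 22 genes, 18 were detected, 7 higher and 7 lower on both arrays (0 and 0 with median centring), with a median of -0.0023 and no call. *Nlrc5*, the class I transactivator, was not detected in either line. *Irf1*, an interferon-induced factor that acts on class I promoters, stood at 0.21 and 0.43, while the interferon-γ receptor genes *Ifngr1* and *Ifngr2* stood at -0.05 and -0.04 and at 0.32 and 0.40. The ratios largest in size were those of *Rfxank* (-0.67 and -0.58), a subunit of the RFX complex on MHC promoters, *Creb1* (-0.60 and -0.53), and *Relb* (-0.42 and -0.50), an NF-κB subunit.

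Of 20 interferon-stimulated genes outside the pathway 16 were detected, 11 higher and 5 lower on both arrays (1 and 0 with median centring, 10 and 4 with the scanner software). The higher genes were 68.8% of the 16, against 41.0% of all detected genes, and the median was 0.19 against -0.01. *Cxcl10*, a chemokine that draws T cells, rose, at 2.24 and 2.62, and was the only call. *Bst2* (tetherin) stood at 0.86 and 0.64, whereas *Gbp2*, a guanylate-binding protein that responds to interferon-γ, stood at -0.94 and -0.61.

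**Figure D4:**
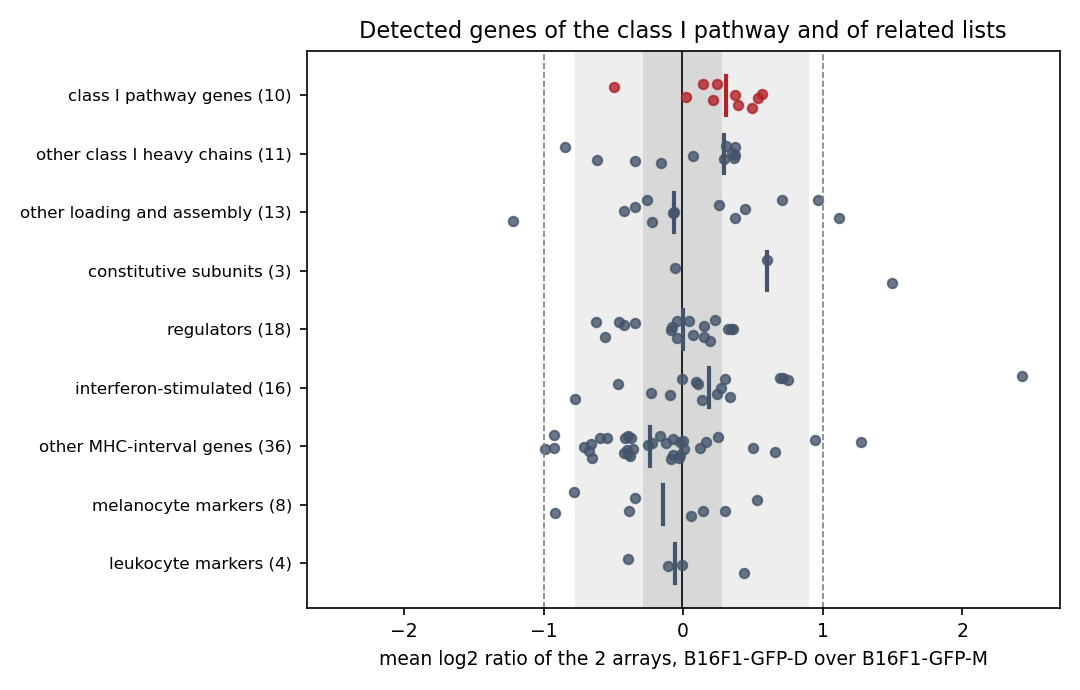
Mean log2 ratio of the dormant over the maternal line on the 2 arrays for each detected gene, by list, with the number of detected genes in brackets and a bar at each median; vertical scatter is only for legibility. The dark band runs from the 25th to the 75th percentile and the light band from the 5th to the 95th percentile of all 12540 detected genes, the black line their median of -0.01, and the dashed lines 2-fold; the 10 pathway genes have a median of 0.31 and all lie inside 2-fold.

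In the mouse genome 8 of the 10 members lie in the MHC on chromosome 17, while *B2m* is on chromosome 2 and *Psmb10* on chromosome 8. *Psmb9*, *Tap1*, *Psmb8* and *Tap2* follow each other without another detected gene between them. Their mean ratios were 0.56, 0.21, 0.53 and 0.02 in this order. On the side of *Psmb9*, the class II chaperone gene *H2-DMb1* stood at 0.90 and 1.06 (1.93 and 2.38 with the scanner software, past 2-fold on both arrays) and was well above background on both arrays only in the dormant line, and beyond it *Brd2* stood at -0.69 and -0.73. On the side of *Tap2* the next detected genes, *Notch4*, *Gpsm3* and *Pbx2*, stood at -0.43 and -0.29, at -0.72 and -0.64 and at -0.70 and -0.65. Of these, *Notch4* was well above background on both arrays only in the maternal line. Between the first member, *Tapbp*, and the last, *H2-T23*, 67 detected genes were neither members nor other class I or class II *H2* genes. They had a median of -0.23, with 11 higher and 41 lower on both arrays (2 and 7 with median centring). The 67 include *H2-Ke6*, at -0.46 and -0.34, which carries an *H2* symbol but encodes a steroid dehydrogenase. Left out of the 67 were *H2-K2*, *H2-DMb1*, *H2-Q2*, *H2-Q4*, *H2-Q5*, *H2-Q7* and *H2-Q10*, which were all higher on both arrays. The lower genes were 61.2% of the 67, against 57.7% of the rest of chromosome 17 and 42.8% of all detected genes. No *H2* gene was left out of the last 2 shares, so they are not like for like with the 67. The members on this chromosome had a median of 0.29, with 6 of 8 higher on both arrays. The rest of chromosome 17 had a median of -0.20 over 473 detected genes. Of these 67 genes 3 were called, where 5.02% of all detected genes were. These 3, all lower and named here after their values were seen, were *1110038B12Rik*, *Ly6g5c* and *Nfkbil1*, with mean ratios of -1.60, -1.26 and -1.26.

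**Figure D5:**
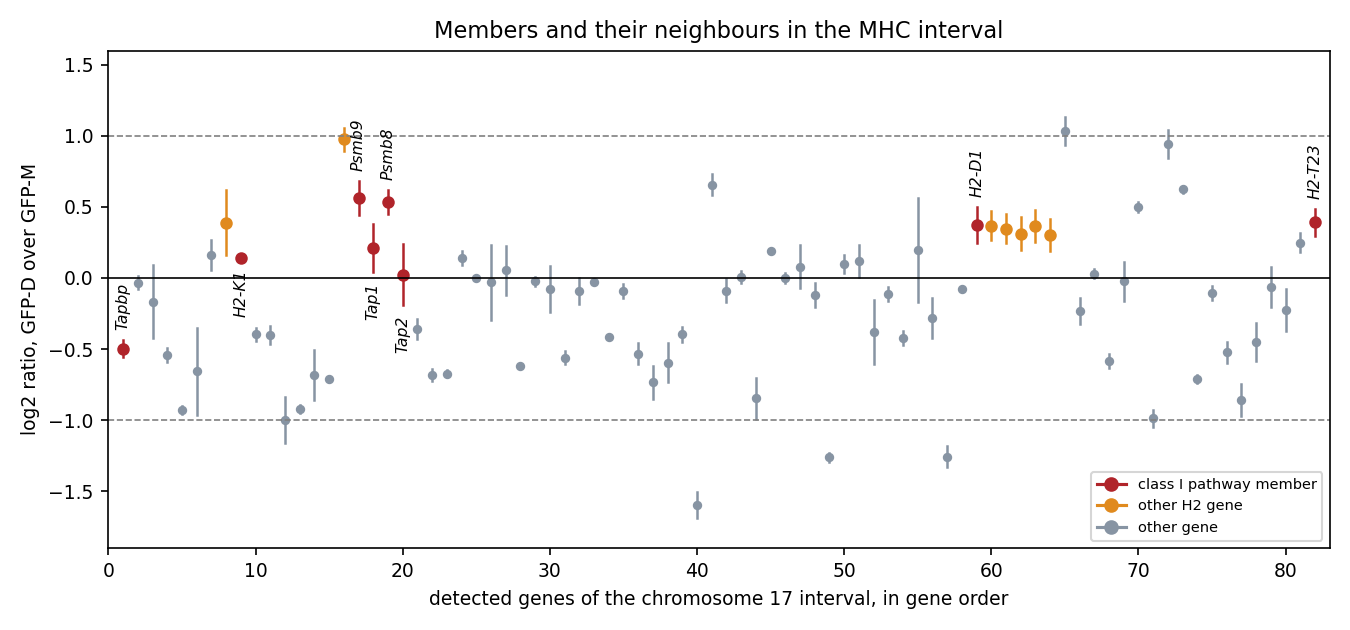
Detected genes of the chromosome 17 interval from Tapbp to H2-T23 in their order along the chromosome (x axis, rank and not distance), with the mean log2 ratio as a point and the values of the 2 arrays as the ends of the bar. The 7 members other than Tapbp (red) and the other MHC genes with an H2 symbol (orange) lie at or above 0, H2-Ke6 being counted with the other genes, and 41 of the 67 other genes (grey) lie below 0 on both arrays; dashed lines mark 2-fold.

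Promoter sequence of 9 of the 10 members was at hand from RefSeq on GRCm38.p6, as 250 bases before and 50 after each start, and *Tap2* was not among them. *Psmb9* and *Tap1* are read in opposite directions from starts that are 225 bases apart, so their windows share 275 bases, and this stretch is shown because the pair shares it while their mean ratios were 0.56 and 0.21. It spans chr17:34187331-34187555, on the strand of *Tap1*, and capitals mark the single match to TGACGNNA. These letters describe the CRE-like part of the SXY module, at which the NLRC5 enhanceosome assembles. The rest of the module was not searched. The 250 bases before the start of *Psmb8*, chr17:34197945-34198194 on its own strand, are shown with the match to the interferon-γ-activated (GAS) element TTCNNNGAA in capitals.
between Psmb9 and Tap1: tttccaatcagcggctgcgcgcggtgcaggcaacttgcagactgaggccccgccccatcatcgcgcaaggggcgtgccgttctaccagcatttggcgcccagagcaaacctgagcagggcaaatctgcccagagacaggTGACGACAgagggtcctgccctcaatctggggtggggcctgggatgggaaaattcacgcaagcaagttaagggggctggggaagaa
Psmb8: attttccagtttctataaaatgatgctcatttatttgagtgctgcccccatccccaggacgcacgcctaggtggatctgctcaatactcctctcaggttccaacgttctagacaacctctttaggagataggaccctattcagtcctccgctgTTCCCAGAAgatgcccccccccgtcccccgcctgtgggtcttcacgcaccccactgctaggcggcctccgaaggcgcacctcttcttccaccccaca

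Both strands were searched, and the ISRE core GAAANNGAA and the usual NF-κB consensus were searched as well. A gene was counted where any of its promoters held the motif, for the members and for all 27025 genes with a promoter. A match to TGACGNNA was found in the windows of *Tap1* and *Psmb9*, in no other member with a promoter at hand, and in 7.56% of all these genes. In this pair it is the same site, beginning at -86 from the start of *Tap1* and -147 from that of *Psmb9*. As the rest of the SXY module was not searched, neither a match nor its absence shows whether a promoter holds the module. The GAS element was found in *Psmb8* alone of the members, at -97, and in 9.55% of all genes. The ISRE core was found in *H2-T23* at -123 and *B2m* at -139, and in 9.76% of all genes. The NF-κB consensus was found in *H2-D1*, *H2-K1* and *B2m*, and in 9.55% of all genes. In *H2-D1* and *H2-K1* it matched at 2 overlapping places, shifted by 1 base. These matches describe the letters of the windows and were not set against the ratios.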

How the data were processed

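The dormant line, B16F1-GFP-D, and the maternal line, B16F1-GFP-M, were compared on 2 arrays with exchanged dyes. Spot and local background intensity values were deposited as the authors' scanner software, Agilent Feature Extraction 10.7.3.1, measured them, with no normalization. The deposited log10 ratios of Cy5 over Cy3 come from intensities that this software background-subtracted and normalized between dyes, and the series value table, also deposited on a log10 scale, holds the same ratios rounded and not turned for the dyes. The software's p-value for each spot was not used. The authors' array normalization for the paper is not given in the sources used here.

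Of the 43379 spots of 41174 probes that are no controls, none was saturated, and outlier spots were dropped, 143 on array 1 and 176 on array 2. On arrays 1 and 2, 44.1% and 56.1% of spots were well above background for the dormant line and 60.7% and 45.0% for the maternal line. In R 4.3.3 with limma 3.58.1, mean signals were corrected for median local background by normexp (offset 50), normalized by loess and turned into log2 ratios of the dormant over the maternal line. Spots of a probe were averaged, a probe counting as well above background where at least 50% of its spots were, and a gene was read from its brightest probe. A gene was called at a log2 ratio of at least 1 in size with 1 sign on both arrays. With 1 replicate per line this sets a size and tests nothing. Over the detected genes the arrays correlated at r = 0.927 across genes, which are not independent replicates, and the pooled SD between arrays was 0.15. Of 28069 probes with a RefSeq accession, 27192 were named through the table of GRCm38.p6. The 1.55-fold difference of the second *Psmb8* probe used channel values after loess and Aquantile scaling. The calculation was tested on simulated arrays. Tables and plots were made in Python 3.11.15 with numpy 2.4.6, pandas 2.3.3 and matplotlib 3.10.9.

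The members and lists were chosen with earlier results of these data known. Named are all members with every probe, the called genes and the 3 largest ratios in size of each list, the constitutive catalytic subunits, and heavy chains, loading factors and interferon pathway genes fixed by name; neighbours were named by position. The values of 1 listed regulator are not reported here. Alternatives were no background subtraction, an offset of 0, the scanner's ratios, median centring, the value table, other filters, the median over probes, each array alone, and thresholds of 1.5-fold and 3-fold.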

Additional observations from a re-analysis of the deposited data

How the results depend on the processing

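No member was called at 1.5-fold or 3-fold, on either array alone, with an offset of 0, with no background subtraction, with median centring, with other filters or with the median over probes. Of all detected genes 15.8% were called at 1.5-fold, 0.98% at 3-fold, 8.59% with an offset of 0 and 5.46% with no background subtraction. The share was 0.51% with median centring, 5.19% with the filter on both lines and 3.76% with the median over probes. Without a filter it was 2.27% of all genes. It was 4.79% on array 1 alone and 5.40% on array 2 alone. With the log ratio of the scanner software, and likewise with the series value table, 2 members were called, *Psmb8* and *Psmb9*, whose ratios were 2.03 and 1.54 on the scanner's scale and 2.02 and 1.54 in the table. Of all detected genes 10.8% were called on each of these scales. The count of members higher on both arrays was 3 with median centring and 5 with the filter on both lines, and otherwise 8; on single arrays it was 8 to 9. The median over members was 0.39 with an offset of 0, 0.51 with median centring, 0.37 with the scanner's ratios, 0.37 with the value table and 0.24 with the filter on both lines. It was 0.31 with no background subtraction, 0.31 without a filter and 0.30 with the median over probes, and 0.27 to 0.34 on single arrays. *Tap2* took the opposite sign in 5 of 10 alternatives, and no other member's mean ratio changed sign. The second probe of *Psmb8* and the counts of members higher on both arrays under the alternatives were added after the data had been seen. No paired analysis was possible because the lines have a single replicate each.

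With 2 arrays the precision of each value is limited. In the maternal line, *Psmb8*, *Psmb9* and *Tap1* were close to background, and the size of their ratios depended on the processing. As means of both arrays, the first probe of *Psmb8* stood at 0.53 after loess and 2.03 with the scanner software, its second probe at 0.70 and 3.18, *Psmb9* at 0.56 and 1.54, and *Tap1* at 0.21 and 0.85. With a single clone as the dormant line, differences between clones and differences between dormant and maternal cells cannot be told apart.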

Other observations

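Class II genes, which present peptides to CD4+ T cells and are not usual in melanocytes without interferon-γ, were not detected apart from 1. Of 8 genes, among them *H2-Aa*, *H2-Ab1*, *H2-Eb1* and *Cd74*, only *H2-DMb1* was detected, at a mean log2 ratio of 0.98, or 2.15 with the scanner software, which is past 2-fold on both arrays. After loess *H2-DMb1* was not called, with 0.90 on array 1. It passed the filter only through the dormant line, which favours a higher ratio. The class II transactivator gene *Ciita* was not detected.

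Among melanocyte markers *Mitf* had log2 ratios of -0.95 and -0.89 on arrays 1 and 2, *Dct* of -1.10 and -0.47, and *Gpnmb* of 0.44 and 0.61, with a median of -0.14 over the 8. The 4 detected leukocyte markers had a median of -0.06, with the highest mean ratio, 0.44, in *Cd68*, a lysosomal protein that is abundant in macrophages. It was followed in size by *Fcer1g* at -0.40, *Lyz2* at -0.11 and *Cd3e*, a T cell gene, at -0.0071. Of 10 fibroblast markers 4 were detected, *Pdgfrb* at 0.83, *Col1a1* at 0.40, *Col1a2* at -0.33 and *Postn* at 0.04, and of 8 endothelial markers *Vwf* alone, at 0.72. *Pdgfrb*, *Col1a1*, *Vwf*, *Cd68* and *Cd3e* were well above background on both arrays only in the dormant line, and *Postn* only in the maternal line. The scanner software put the mean log2 ratios of the former at 4.10, 1.97, 1.81, 1.68 and 0.11, and that of *Postn* at 0.25. The part of other cell types in the ratios of the class I genes was not tested.

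In the MHC interval list of 45 genes, 36 were detected, 7 higher and 23 lower on both arrays in the dormant line (2 and 2 with median centring), and the median was -0.24. The higher genes were 19.4% of the 36 and the lower 63.9%, against 41.0% and 42.8% of all detected genes. *Kifc1*, a mitotic kinesin, rose at 1.26 and 1.29 and was the only call, where 5.02% of all detected genes were called. *Flot1* stood at -1.05 and -0.93, and *Tubb5*, a tubulin, at 1.04 and 0.85.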
